A study of Mus musculus with 9 samples.

Results

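Collagen genes were taken as all genes whose symbol is Col, a type number, the letter a and a chain number, and 44 of the 22322 genes in the table met this rule. They comprised 11 fibrillar genes, 8 basement membrane genes and 25 others. RNA of mouse retinal ganglion cells (RGCs) was sequenced in 3 groups of 3 culture wells, 9 libraries in all. Normal RGCs had no D-galactose, aging RGCs were treated with D-galactose, and the group named aging RGCs + USCs medium had D-galactose and then medium conditioned by human urine-derived stem cells (USCs), from which the USCs had been removed. All groups had the genotype WT, the cells were purchased and grown with serum, and the strain, sex and age of the source animals were not given in the sources used here. Wells of a group carry no information on separate animals, so the p-values measure the spread between wells. Totals of expected counts were 22342288, 20062796 and 19814241 in normal RGCs, 18189616, 19188248 and 19556335 in aging RGCs, and 20362398, 21054326 and 20238824 in aging RGCs + USCs medium.

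Collagens are secreted proteins built of 3 chains wound into a triple helix, and each chain has its own gene. Fibrillar collagens pack into banded fibrils that carry tension, basement membrane collagens form the sheet on which cells rest, and the remaining classes link, coat or anchor these structures or sit in the cell membrane. In the eye, the inner limiting membrane next to the ganglion cell layer is a basement membrane that holds type IV and type XVIII collagen.

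The label of the cells was checked against cell type markers, given as FPKM, a level scaled by transcript length and library size. Of 10 RGC markers, 7 had a mean under 0.5 FPKM. Pou4f2 and Pou4f3, which encode transcription factors that define RGCs, had 0 counts in all 9 libraries. Rbpms, which marks RGCs in the retina, had the highest mean of that list with 27.2 FPKM. Of 7 epithelial markers 3 were under 0.5 FPKM, among them Cdh1 and Krt5, and Krt8 was the highest with a mean of 285 FPKM. Of 8 fibroblast and mesenchymal markers 3 were under 0.5 FPKM (Dcn, Lum and Acta2), and the regulator Twist2 was the highest with 35.6 FPKM. The cells are therefore called RGCs here only as their label. In bulk samples such as these, fewer cells of a type and less RNA per cell cannot be told apart.

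The collagen mRNA of these cells came mainly from a few genes and was lowest after the USCs medium. The summed collagen level was 568, 516 and 544 FPKM in normal RGCs, 493, 487 and 495 FPKM in aging RGCs, and 382, 382 and 385 FPKM in aging RGCs + USCs medium. The means were 543 ± 26.2, 492 ± 3.98 and 383 ± 1.46 (SD, n = 3), and the 3 groups did not overlap. Fibrillar genes summed to 154 ± 7.39, 127 ± 7.12 and 88.7 ± 4.53 FPKM in the same order (SD, n = 3). Basement membrane genes summed to 288 ± 15.3, 261 ± 2.16 and 209 ± 4.87 FPKM. The other collagen genes summed to 101 ± 4.54, 104 ± 1.65 and 84.9 ± 0.635 FPKM, and normal and aging RGCs overlapped in this class. In summed CPM, counts scaled by library size and TMM factors, it was the medium (421 to 430) and normal RGCs (424 to 463) that overlapped, below aging RGCs (474 to 486). As a percent of all counts, without TMM factors, the medium (0.0403% to 0.0411%) lay below normal RGCs (0.0436% to 0.0478%). Fibrillar genes made up 28.3%, 25.9% and 23.2% of the collagen sum across the groups, basement membrane genes 53.1%, 53.1% and 54.7%, and the others 18.6%, 21.1% and 22.2%. These sums are a description and were given no test. Summed CPM over all collagen genes gave a smaller drop with the medium, to 0.829 times the level of aging RGCs, compared with 0.779 times in FPKM. This rested largely on the TMM factors, since as a percent of all counts the collagen genes took 0.274% in normal RGCs, 0.251% in aging RGCs and 0.197% with the medium.

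**Figure D1:**
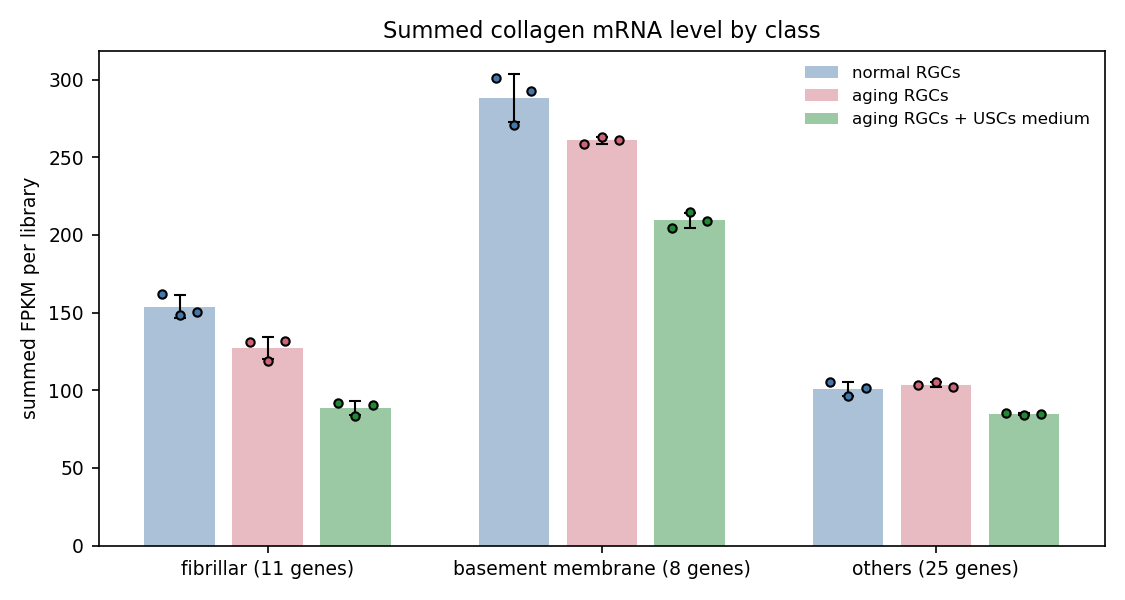
Summed FPKM per library of the fibrillar, basement membrane and other collagen genes (vertical axis, from 0) in each of the 3 groups. Bars are means, error bars SD and points single libraries. The 3 USCs medium libraries lie lowest in each class, with fibrillar sums of 83.5 to 91.8 FPKM.

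Among the 44 collagen genes, 7 had a mean of at least 20 FPKM, 13 of at least 1 FPKM, and 29 were under 0.5 FPKM. The order of the leading means was Col4a1 (106 FPKM), Col3a1 (76.2), Col18a1 (68.4), Col4a2 (61.3), Col6a1 (42.3), Col16a1 (35.7), Col5a1 (33.0) and Col4a5 (17.0). The 8 leading genes of each group held 93.7% of the collagen FPKM in normal RGCs, 93.4% in aging RGCs and 91.7% in aging RGCs + USCs medium. The order changed with the group. Col3a1 stood below only Col4a1 in normal and aging RGCs, at 96.7 ± 6.4 and 81.7 ± 7.8 FPKM (SD, n = 3). After the USCs medium it was at 50.2 ± 3.4 FPKM, below Col4a2 (57.8 ± 1.4) and Col18a1 (50.7 ± 1.2) as well. Col18a1 and Col3a1 differed there by less than their spread. No counts were seen in any library for Col6a6, Col9a1, Col19a1 and Col26a1.

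The low-count filter kept 27 of the 44 collagen genes for testing, 8 of them fibrillar, 6 basement membrane and 13 others. The 17 genes left untested had means of at most 0.0611 FPKM, the value of Col1a2. A gene that passed the filter only through its highest group is among the 27, so the counts below describe the genes tested and not all members. Within-gene levels of single collagen genes below are the same CPM, since the FPKM values divide by a transcript length that differed between libraries, by up to 1.23 times for Col3a1 and 1.31 times for Col12a1. Genes past the test had a Benjamini-Hochberg adjusted p under 0.05 in the quasi-likelihood test of edgeR, and DEGs also had a log2 fold change of 1 or more in either direction.

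Aging RGCs were compared with normal RGCs to ask what D-galactose treatment changed. The fibrillar genes Col3a1, Col5a1, Col5a3 and Col1a1 and the basement membrane genes Col18a1 and Col4a5 were lower in aging RGCs. The abundant basement membrane genes Col4a1 and Col4a2 did not pass the test, and the anchoring fibril gene Col7a1 and the fibril-associated genes Col12a1 and Col16a1 were higher. Among genes under 1 FPKM, the fibrillar Col24a1 and Col27a1 and the network gene Col8a1 were higher. The fibril-associated Col14a1 and the transmembrane Col23a1 were lower. Of the 27 genes tested, 6 rose (22.2%) against 23.6% of all 12145 genes tested, 8 fell (29.6%) against 23.0%, and 13 did not pass. DEGs were 2 upregulated collagen genes and 1 downregulated, against 1.09% and 1.56% of all genes tested. The median log2 fold change was 0.01 over the 27 genes and 0.0019 over all genes tested. Fibrillar genes counted 2 up and 4 down of 8, basement membrane genes 0 up and 2 down of 6, and the others 4 up and 2 down of 13.

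Aging RGCs + USCs medium were compared with aging RGCs to ask what the conditioned medium changed. The paper describes high glucose medium for the RGCs and a special medium for the USCs, and no sequenced group had unconditioned USCs medium. Conditioning by the USCs and a difference in base medium therefore cannot be told apart here. Collagen genes of every class fell, with Col3a1 at 0.603 and Col16a1 at 0.561 times their level in aging RGCs, while Col7a1, Col6a2 and Col6a3 rose. The counts were 3 up (11.1%) and 15 down (55.6%) of 27, with 9 not past the test, where 27.1% of all genes tested rose and 26.0% fell. DEGs were 0 up and 7 down, against 1.24% up and 4.21% down of all genes tested, and all 7 had low levels. The median log2 fold change was -0.36 over the collagen genes and -0.0067 over all genes tested. By class, 6 of 8 fibrillar genes, 3 of 6 basement membrane genes and 6 of 13 others fell. All 3 genes that rose were in the last class.

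Aging RGCs + USCs medium were also set against normal RGCs, a comparison that shares its libraries with the first and the second. Here 5 collagen genes rose (18.5%) and 13 fell (48.1%), where 30.6% of all genes tested rose and 29.9% fell. DEGs were 2 up (Col7a1 and Col27a1) and 7 down (Col1a1, Col2a1, Col4a5, Col8a1, Col14a1, Col22a1 and Col23a1), against 1.47% and 5.24% of all genes tested. The Col8a1 call was lost without normal replicate 1 (adjusted p = 0.0618), USCs medium replicate 1 (0.0637) or USCs medium replicate 2 (0.0896). It was also lost with limma on log2(FPKM + 1) and log2(FPKM + 0.1) (adjusted p = 0.194 and 0.0505). The Col27a1 call was lost under 7 of 16 alternatives, among them DESeq2 (adjusted p = 0.0523), no low-count filter (0.0681), and leaving out normal replicate 2 (0.0871), normal replicate 3 (0.0825) or USCs medium replicate 2 (0.166). The median log2 fold change was -0.61 over the 27 genes and -0.013 over all genes tested. Fibrillar genes counted 1 up and 5 down of 8, basement membrane genes 0 up and 3 down of 6, and the others 4 up and 5 down of 13.

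**Figure D2:**
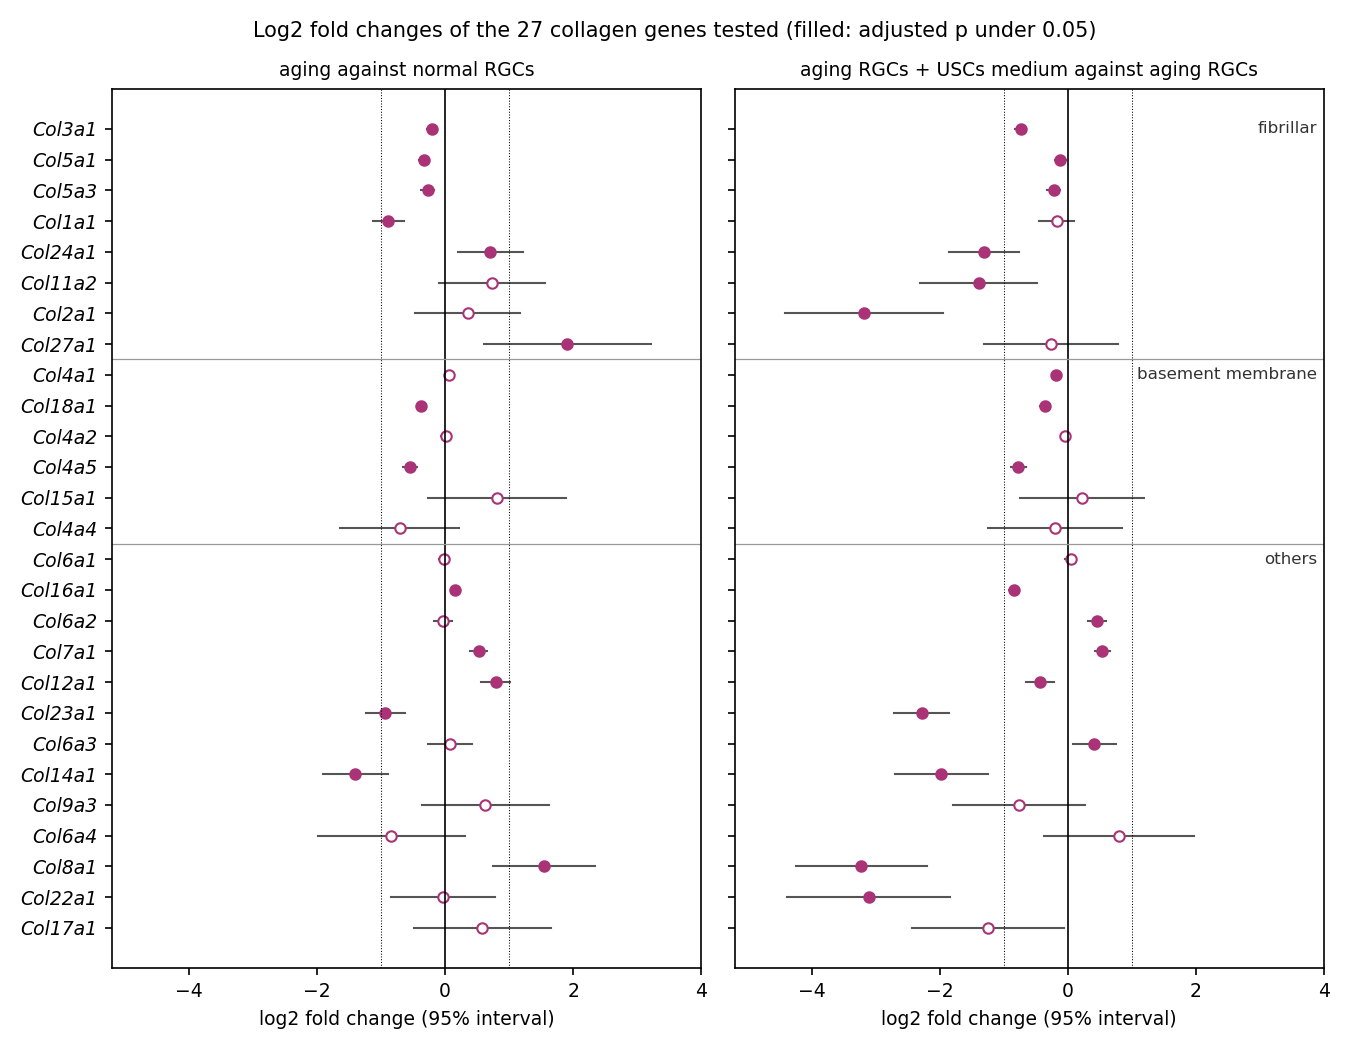
Log2 fold changes with 95% intervals (horizontal axis) of the 27 collagen genes tested, by class, for aging against normal RGCs (left) and aging RGCs + USCs medium against aging RGCs (right). Filled points have an adjusted p under 0.05 and dotted lines mark an absolute log2 fold change of 1. On the right, 15 filled points lie below 0 and 3 above it.

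Col3a1 encodes the single chain of type III collagen, a fibrillar collagen of blood vessels and other distensible tissue, and was the most abundant fibrillar gene here. Its gene lies at chr1:45311538-45349706 on the plus strand (GRCm38). Levels were 486, 408 and 448 CPM in normal RGCs, 388, 385 and 395 CPM in aging RGCs, and 234, 233 and 238 CPM after the USCs medium. The groups did not overlap, and the wells of the medium group lay closest together. Aging RGCs were lower than normal RGCs by a log2 fold change of -0.20 (SE 0.041, adjusted p = 0.000179). With the medium Col3a1 fell by 0.73 on the log2 scale (SE 0.042, adjusted p = 2.59e-14), to 0.603 times aging RGCs. Against normal RGCs the difference was -0.93 (SE 0.042, adjusted p = 6.15e-17).

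Type V collagen sits inside fibrils and sets their diameter, and Col5a1 encodes the chain present in nearly all of its trimers. Col5a1 measured 193, 187 and 181 CPM in normal RGCs, 144, 156 and 148 CPM in aging RGCs, and 140, 137 and 138 CPM with the medium. It was lower in aging than in normal RGCs (log2 fold change -0.32, SE 0.038, adjusted p = 7.24e-08), and the medium libraries lay just below the aging ones (-0.11, SE 0.039, adjusted p = 0.0178). That second call was lost without aging replicate 2 (adjusted p = 0.154), without USCs medium replicate 2 (0.0621) and without USCs medium replicate 3 (0.0524). Col5a3, a further type V chain, measured 84.0, 90.2 and 80.0 CPM, then 71.3, 68.3 and 71.2 CPM, then 60.8, 59.9 and 60.3 CPM, with no overlap between the groups. Its log2 fold changes were -0.27 (SE 0.048, adjusted p = 3.1e-05) for aging against normal and -0.22 (SE 0.049, adjusted p = 0.000456) for the medium against aging RGCs. The third chain gene, Col5a2, had 19, 14 and 0 counts summed over the 3 libraries of each group. Col5a2 and Col3a1 are neighbours on chromosome 1, tail to tail and 24614 bases apart, with means of 0.03 and 76.2 FPKM.

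Col1a1 encodes the main chain of type I collagen, the most abundant collagen of bone, skin and tendon, and it stood low in these cells. Levels were 17.1, 13.2 and 13.9 CPM in normal RGCs, 6.65, 8.34 and 8.96 CPM in aging RGCs, and 6.94, 7.20 and 7.17 CPM with the medium. Normal RGCs lay above all other libraries, and the other two groups overlapped. Col1a1 fell by 0.88 on the log2 scale in aging RGCs (SE 0.12, adjusted p = 6.86e-07). The medium against aging RGCs gave -0.17 (95% interval -0.44 to 0.10, adjusted p = 0.284), and the medium against normal RGCs -1.06 (SE 0.12, adjusted p = 1.75e-08). Col1a2, the partner chain with which Col1a1 forms the usual trimer, had only 9, 23 and 5 counts summed over the libraries of each group. The ratio of Col3a1 to Col1a1 in FPKM was 38.1 ± 2.92, 61.1 ± 13.1 and 43.6 ± 3.25 (SD, n = 3) in normal, aging and medium-treated RGCs. This ratio also carries the transcript length used for FPKM, which differed between libraries by up to 1.23 times for Col3a1.

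Type IV collagen is the network former of basement membranes, and Col4a1 and Col4a2 encode its most widespread trimer. Col4a1 measured 579, 535 and 560 CPM in normal RGCs, 576, 584 and 587 CPM in aging RGCs, and 511, 517 and 507 CPM with the medium. Normal and aging RGCs overlapped (log2 fold change 0.06, 95% interval -0.0023 to 0.13, adjusted p = 0.108), and without normal replicate 1 the difference passed (0.09, adjusted p = 0.0278). With the medium Col4a1 fell by 0.19 on the log2 scale (SE 0.032, adjusted p = 1.29e-05), and all 3 medium libraries lay below the other 6. Settings other than a left-out library gave log2 fold changes of -0.321 to -0.181 for this comparison. Col4a2 measured 400, 386 and 407 CPM, then 388, 407 and 406 CPM, then 390, 380 and 395 CPM, and all groups overlapped. Its log2 fold changes were 0.01 (95% interval -0.056 to 0.077, adjusted p = 0.821) and -0.04 (95% interval -0.11 to 0.02, adjusted p = 0.267). Without TMM factors the second became -0.12 (adjusted p = 0.00217), while the median of all genes moved to -0.09, and it passed with limma at both pseudocounts (adjusted p = 0.015 and 0.0158). Against normal RGCs the medium group's Col4a2 likewise passed without TMM factors (-0.13, adjusted p = 0.000724) and with limma (adjusted p = 0.00756 and 0.00799), and not in the TMM-scaled edgeR test (-0.03, adjusted p = 0.382). Both genes lie head to head on chromosome 8 and overlap at their starts, with annotated antisense genes, and whether the counting used strand was not given in the sources used here. Col4a1 to Col4a2 ratios were 1.77 ± 0.108, 1.81 ± 0.0576 and 1.58 ± 0.112 in FPKM (SD, n = 3), with the medium libraries between 1.51 and 1.71. Part of that difference can lie in the transcript length used for FPKM, which differed between libraries by up to 1.12 times for Col4a1.

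Col4a5, a further type IV chain that in some basement membranes replaces the common trimer during maturation, moved more than Col4a1. Levels were 158, 129 and 159 CPM in normal RGCs, 107, 98.1 and 101 CPM in aging RGCs, and 57.1, 61.4 and 61.1 CPM with the medium. The 3 groups did not overlap and stepped down in that order. Col4a5 fell by 0.55 on the log2 scale in aging RGCs (SE 0.056, adjusted p = 4.52e-09) and by a further 0.77 with the medium (SE 0.060, adjusted p = 1.83e-11). Against normal RGCs the medium group was at 0.403 times the level (log2 fold change -1.31, SE 0.059, adjusted p = 5.49e-17). The ratio of Col4a1 to Col4a5 in FPKM was 4.57 ± 0.158, 6.78 ± 0.214 and 9.54 ± 0.301 (SD, n = 3), without overlap. Of the chains that join Col4a5 in trimers, Col4a3 had a mean of 0.029 FPKM, Col4a4 0.057 FPKM and Col4a6 0.019 FPKM. Col4a4 alone of these was tested, and it passed in no comparison.

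Col4a5 and Col4a6 lie head to head on chromosome X, 1308 bases apart, yet only Col4a5 was expressed at a mean above 1 FPKM. The sequences before their starts are shown because the pair shares this stretch of chromosome. The run for Col4a5 is chrX:141475169-141475384 on the plus strand, and that for Col4a6 is chrX:141474077-141474326 on the minus strand, both from RefSeq (GRCm38.p6) and written 5′ to 3′. Capitals mark a CCAAT box in Col4a5 and a GC box, read on the opposite strand, in Col4a6. The Col4a5 run ends at the annotated gene start, and the rest of its RefSeq window holds a GC box 30 bases before the RefSeq start site, so the windows of both genes hold one.
Col4a5: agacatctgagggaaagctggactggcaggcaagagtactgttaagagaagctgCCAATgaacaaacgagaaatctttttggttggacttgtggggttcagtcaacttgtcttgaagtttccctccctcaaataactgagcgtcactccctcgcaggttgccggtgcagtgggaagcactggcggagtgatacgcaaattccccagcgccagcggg
Col4a6: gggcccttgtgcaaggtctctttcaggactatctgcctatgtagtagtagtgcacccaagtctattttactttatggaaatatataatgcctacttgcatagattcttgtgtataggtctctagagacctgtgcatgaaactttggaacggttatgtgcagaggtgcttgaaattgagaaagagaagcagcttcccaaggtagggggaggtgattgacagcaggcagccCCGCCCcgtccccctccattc
These matches describe letters in the sequence and not a bound site.

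Col18a1 encodes type XVIII collagen, a basement membrane collagen that carries heparan sulfate and ends in the fragment endostatin. It measured 388, 363 and 372 CPM in normal RGCs, 287, 292 and 289 CPM in aging RGCs, and 228, 225 and 224 CPM after the medium. No library of one group reached the range of another. Col18a1 fell by 0.37 on the log2 scale in aging RGCs (SE 0.033, adjusted p = 2.1e-10) and by 0.36 with the medium (SE 0.033, adjusted p = 4.55e-10). Its annotated gene overlaps the protein-coding gene Slc19a1 on the other strand. Col15a1, the other member of this subclass, had a mean of 0.345 CPM in normal RGCs, 0.609 CPM in aging RGCs and 0.709 CPM with the medium, and passed in no comparison (adjusted p = 0.217 and 0.718 for aging against normal and the medium against aging RGCs).

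**Figure D3:**
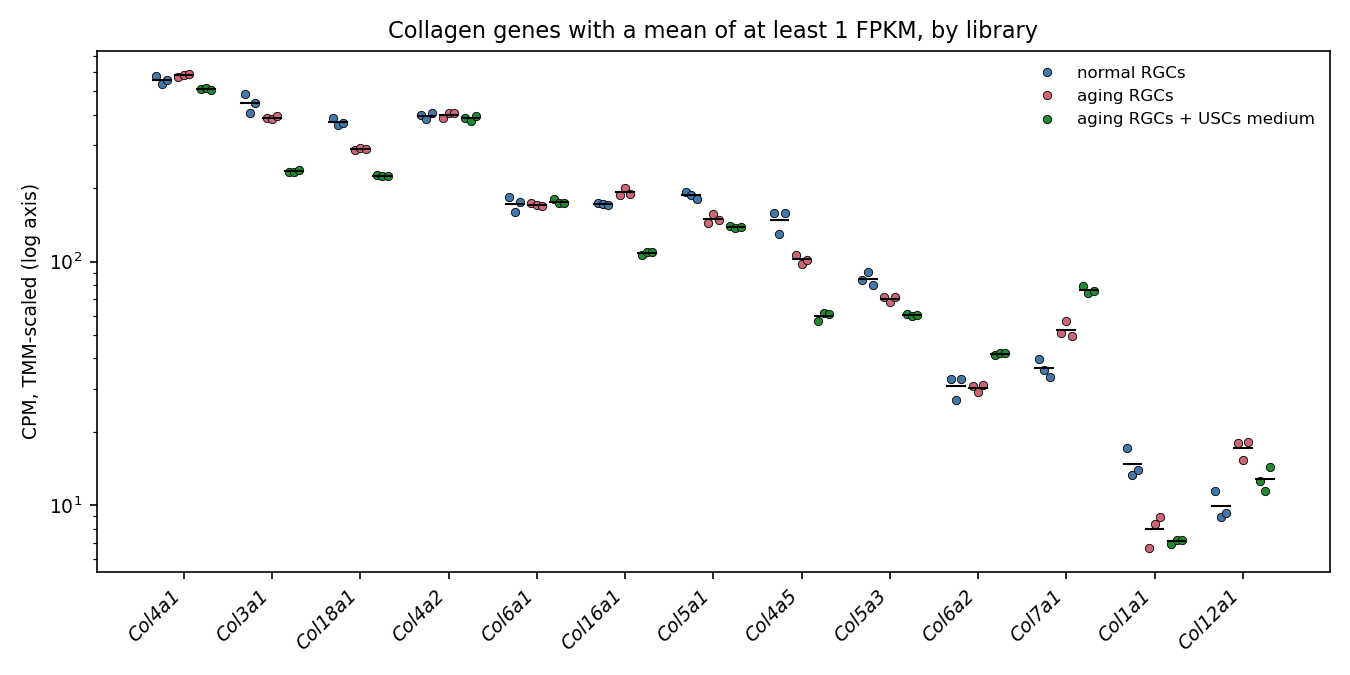
CPM (TMM-scaled, log axis) of the 13 collagen genes with a mean of at least 1 FPKM in each library of the 3 groups. Points are libraries and lines group means. Col3a1, Col18a1, Col4a5 and Col5a3 step down over the groups, Col7a1 steps up, and Col4a2 and Col6a1 passed the TMM-scaled edgeR test in no comparison.

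Col16a1 belongs to the fibril-associated collagens with interrupted triple helices (FACITs), which decorate fibrils and do not form them. It measured 175, 172 and 171 CPM in normal RGCs, 188, 200 and 190 CPM in aging RGCs, and 106, 109 and 109 CPM with the medium. Aging RGCs were the highest and medium-treated RGCs the lowest, with no overlap. Col16a1 rose by 0.16 on the log2 scale in aging RGCs (SE 0.036, adjusted p = 0.000503). Limma made this call neither on log2(FPKM + 1) (log2 fold change 0.08, adjusted p = 0.141) nor on log2(FPKM + 0.1) (0.09, adjusted p = 0.146). With the medium it fell by 0.83 (SE 0.037, adjusted p = 8.49e-17), to 0.561 times aging RGCs. Col12a1, a FACIT of tendon and other loaded tissue, measured 11.4, 8.97 and 9.28 CPM, then 17.9, 15.3 and 18.2 CPM, then 12.6, 11.4 and 14.3 CPM. Aging RGCs were again the highest, while the medium and normal libraries overlapped. Col12a1 rose by 0.79 on the log2 scale in aging RGCs (SE 0.11, adjusted p = 7.88e-07). With the medium against aging RGCs it had a log2 fold change of -0.43 (SE 0.11, adjusted p = 0.00121). Limma did not make that second call on log2(FPKM + 1) or log2(FPKM + 0.1) (adjusted p = 0.0983 and 0.122). Against normal RGCs the medium gave 0.36 (adjusted p = 0.00649), a call lost without USCs medium replicate 3 (adjusted p = 0.0615) and with limma at either pseudocount (0.218 and 0.206).

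Col7a1 encodes the single chain of type VII collagen, which forms the anchoring fibrils that fasten epithelial basement membranes to the tissue below. It stepped up over the groups. Levels were 39.9, 35.8 and 33.6 CPM in normal RGCs, 51.0, 57.0 and 49.5 CPM in aging RGCs, and 79.1, 74.4 and 75.6 CPM with the medium, with no overlap. The log2 fold change was 0.52 in aging against normal RGCs (SE 0.063, adjusted p = 8.02e-08) and 0.54 with the medium against aging RGCs (SE 0.059, adjusted p = 9.82e-09). Against normal RGCs the medium group was at 2.09 times the level (log2 fold change 1.06, SE 0.061, adjusted p = 1.06e-14). Col7a1 was the one collagen gene of at least 1 FPKM past the test upward in both of the first comparisons.

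Col3a1 stepped down and Col7a1 stepped up over the groups, and as an example of each the 250 bases before their RefSeq start sites (GRCm38.p6) are shown, 5′ to 3′ and both on the plus strand. The Col3a1 run is chr1:45311288-45311537 and the Col7a1 run chr9:108953336-108953585. Capitals mark a TATA box that begins 117 bases before the start site of Col3a1, and a CCAAT box on the opposite strand and a GC box in Col7a1.
Col3a1: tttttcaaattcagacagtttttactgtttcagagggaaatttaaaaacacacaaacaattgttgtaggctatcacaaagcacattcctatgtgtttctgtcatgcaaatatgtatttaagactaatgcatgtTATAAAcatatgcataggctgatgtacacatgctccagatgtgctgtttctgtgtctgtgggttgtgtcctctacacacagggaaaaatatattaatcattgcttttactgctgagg
Col7a1: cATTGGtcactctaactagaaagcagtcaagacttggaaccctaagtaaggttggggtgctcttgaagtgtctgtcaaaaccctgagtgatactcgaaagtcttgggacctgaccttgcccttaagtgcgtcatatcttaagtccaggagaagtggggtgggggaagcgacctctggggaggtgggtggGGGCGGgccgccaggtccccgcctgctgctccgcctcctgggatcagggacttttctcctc
GC content was 35.2% in the first run and 56.4% in the second. RefSeq windows were matched for 35 of the 44 collagen genes, with 38 windows in all, and both strands were searched for a CCAAT box, a GC box spelt GGGCGG and a TATA box spelt TATAAA, none of which contains another. The GC box occurred in 57.9% of the collagen windows and 32.7% of all 32851 windows, the CCAAT box in 34.2% and 33.8%, and the TATA box in 13.2% and 12.4%. Median GC content was 59.0% and 52.4%, and these shares are descriptions that say nothing of binding.

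Type VI collagen forms beaded filaments around cells, and its usual trimer takes one chain each from Col6a1, Col6a2 and Col6a3. Col6a1 measured 183, 160 and 175 CPM in normal RGCs, 173, 170 and 170 CPM in aging RGCs, and 181, 175 and 174 CPM with the medium. It passed the test in no comparison, with log2 fold changes of -0.01 (95% interval -0.099 to 0.069) and 0.04 (95% interval -0.039 to 0.13), and the direction of both turned in other settings. Col6a2 measured 32.8, 26.9 and 33.0 CPM, then 30.7, 29.1 and 31.1 CPM, then 41.5, 42.0 and 42.0 CPM, so the medium libraries lay above all others. With the medium Col6a2 rose by 0.46 on the log2 scale (SE 0.068, adjusted p = 1.73e-06). Col6a3 measured 3.46, 4.60 and 5.28 CPM, then 5.30, 4.53 and 4.20 CPM, then 6.52, 5.95 and 6.25 CPM, a log2 fold change of 0.42 with the medium (SE 0.16, adjusted p = 0.0314). The count of 3 upward collagen genes past the test with the medium fell to 2 without TMM factors and without aging replicate 2, aging replicate 3, medium replicate 1 or medium replicate 3, while Col6a2 and Col7a1 kept their calls in each of these settings. The chains thus had unequal levels, with a Col6a1 to Col6a2 ratio of 5.49 ± 0.329, 5.50 ± 0.216 and 4.14 ± 0.124 in FPKM (SD, n = 3). Of the alternative chains, Col6a4 had a mean of 0.142 FPKM, Col6a5 0.012 FPKM, and Col6a6 0 counts.

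**Figure D4:**
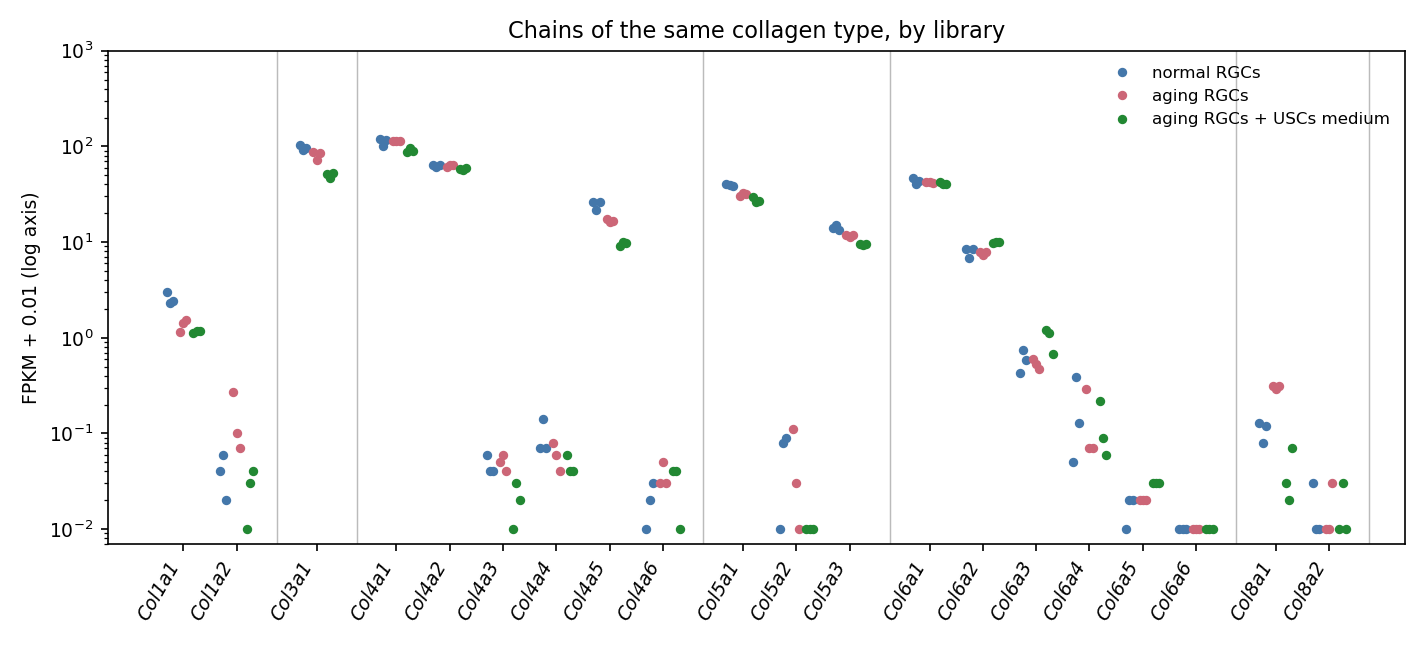
FPKM plus 0.01 (log axis) of each chain of collagen types I, III, IV, V, VI and VIII in every library, coloured by group. In type IV, Col4a1 (106 FPKM), Col4a2 (61.3 FPKM) and Col4a5 (17.0 FPKM) stand above Col4a3, Col4a4 and Col4a6, which have means of at most 0.057 FPKM.

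The 7 collagen DEGs of the medium against aging RGCs were all under 1 FPKM on average, outside the levels at which genes were named by rule, and were taken up after their values were seen. Col23a1, a transmembrane collagen, was the highest of them, with counts of 222, 202 and 183 in normal RGCs, 98, 95 and 93 in aging RGCs, and 27, 15 and 18 with the medium. It fell by 0.93 on the log2 scale in aging RGCs (SE 0.15, adjusted p = 6.12e-06) and by 2.28 with the medium (SE 0.21, adjusted p = 3.12e-10). Col14a1, a FACIT, had 104, 73 and 73 counts, then 27, 21 and 37, then 8, 7 and 7. Its log2 fold changes were -1.40 (SE 0.24, adjusted p = 2.69e-05) and -1.97 (SE 0.36, adjusted p = 3.54e-05), and it was the one collagen DEG downward in aging RGCs. Both genes stepped down over the groups without overlap.

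Col8a1, a short chain of the network in the basement membrane of the corneal endothelium, went up and then down. Its counts were 14, 7 and 11 in normal RGCs, 28, 27 and 30 in aging RGCs, and 2, 1 and 6 with the medium. The log2 fold changes were 1.55 (SE 0.39, adjusted p = 0.00168) and -3.22 (SE 0.50, adjusted p = 3.49e-06). Col2a1, the main fibrillar collagen of cartilage and vitreous, had 20, 10 and 11 counts, then 15, 16 and 16, then 2, 2 and 1. Normal and aging RGCs overlapped, and the medium against aging RGCs gave -3.18 (95% interval -4.41 to -1.94, adjusted p = 6.13e-05). Col22a1, a FACIT found at tissue junctions, had 21, 11 and 19 counts, then 11, 16 and 18, then 1, 1 and 3. With the medium against aging RGCs its log2 fold change was -3.11 (95% interval -4.39 to -1.84, adjusted p = 0.000115), a call that limma on log2(FPKM + 1) did not make (0.11). The remaining pair was Col24a1 (-1.31, SE 0.27, adjusted p = 0.000147) and Col11a2 (-1.39, SE 0.44, adjusted p = 0.00984). Col24a1 had been higher in aging than in normal RGCs (0.70, SE 0.25, adjusted p = 0.0205). The Col11a2 call was lost without aging replicate 3 (adjusted p = 0.0988) or USCs medium replicate 1 (0.0593), and with limma on log2(FPKM + 1) (0.0798). The other upward DEG of aging RGCs, Col27a1, had at most 0.595 CPM in any library (log2 fold change 1.91, SE 0.63, adjusted p = 0.0145). Its call was lost without normal replicate 2 (adjusted p = 0.0519) or aging replicate 1 (0.0578). Limma on log2(FPKM + 1) and log2(FPKM + 0.1) did not make it either (adjusted p = 0.214 and 0.0767).

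**Figure D5:**
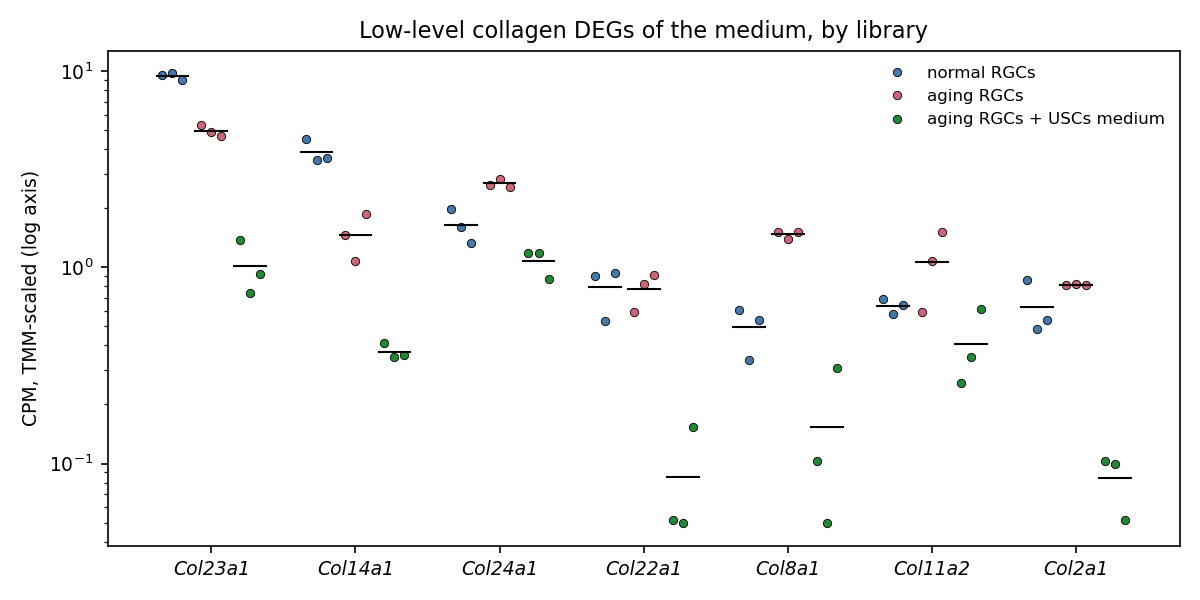
CPM (TMM-scaled, log axis) of the 7 collagen genes of low level that were DEGs downward in aging RGCs + USCs medium against aging RGCs, in each library. Points are libraries and lines group means. Medium libraries lie below all aging libraries for each gene except Col11a2, where the groups overlap.

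Genes that make, secrete and bind collagen were read from fixed lists. Of 19 genes for modification and folding of the chains in the endoplasmic reticulum, 18 were tested. In aging RGCs 2 rose (11.1%, where 23.6% of all genes tested rose) and 9 fell (50.0%, where 23.0% did). With the medium against aging RGCs 5 rose and 5 fell (27.8% each), near the 27.1% and 26.0% of all genes tested. Serpinh1, the collagen chaperone, fell in aging RGCs (log2 fold change -0.24, adjusted p = 4.73e-07) and rose with the medium (0.18, adjusted p = 3.5e-05). Plod1, which hydroxylates lysines of the chains, fell in aging RGCs (-0.42, adjusted p = 9.65e-09). P4ha2, a prolyl hydroxylase subunit, fell with the medium (-0.34, adjusted p = 3.8e-07), and its relative P4ha3 rose in both comparisons (0.58 with adjusted p = 1.06e-05, and 0.39 with adjusted p = 0.000505). Tmem38b fell in aging RGCs (-0.72, adjusted p = 0.000177), where Crtap rose (0.17, adjusted p = 0.00568). Fkbp14 fell in both comparisons (-0.40 with adjusted p = 0.000114, and -0.43 with adjusted p = 9.6e-05). With the medium P3h3 fell (-0.65, adjusted p = 0.000571), while Plod3 (0.45, adjusted p = 2.9e-09) and Ppib (0.22, adjusted p = 7.71e-05) rose. Serpinh1 was chosen after its values were seen.

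Of 17 genes for secretion, propeptide cleavage and cross-linking, 10 were tested, and 3 rose (against 23.6% of all genes tested) and 4 fell (against 23.0%) in aging RGCs. With the medium 5 rose and 5 fell (50.0% each, against 27.1% and 26.0% of all genes tested). Mia3, the export receptor for large cargo such as procollagen, measured 177, 191 and 186 CPM in normal RGCs, 144, 145 and 142 CPM in aging RGCs and 167, 154 and 164 CPM with the medium, a fall of 0.36 on the log2 scale (adjusted p = 1.26e-08) and a rise of 0.17 (adjusted p = 0.000711). Pcolce2, an enhancer of procollagen C-propeptide cleavage, stepped up from 29.8, 29.7 and 28.0 CPM over 41.1, 43.0 and 39.2 CPM to 73.5, 77.3 and 74.5 CPM. Its log2 fold change with the medium was 0.87 (SE 0.053, adjusted p = 7.12e-14). Loxl2, a lysyl oxidase that cross-links type IV collagen, fell with the medium (-0.43, SE 0.030, adjusted p = 1.29e-12), and Lox, the classical cross-linking enzyme of fibrils, had at most a mean of 0.080 FPKM in a group. Sparc, a collagen-binding protein of the matrix, rose by 0.16 in aging RGCs (adjusted p = 6.27e-05) and fell with the medium (-0.43, adjusted p = 2.35e-12).

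Among 10 collagen receptor genes, 7 were tested, of which 0 rose and 4 fell in aging RGCs (57.1% down, against 23.0% of all genes tested) and 0 rose and 3 fell with the medium (42.9% down, against 26.0%). Mrc2, the receptor that takes up collagen fragments, measured 173, 142 and 162 CPM, then 119, 122 and 120 CPM, then 72.0, 72.6 and 72.8 CPM (log2 fold changes -0.40, adjusted p = 1.39e-07, and -0.74, adjusted p = 2.27e-12). The discoidin receptor Ddr2 fell by 0.30 and then 0.14 on the log2 scale (adjusted p = 3.64e-09 and 0.000361). Of 12 fibril-associated proteoglycans and glycoproteins 5 were tested, with 1 up and 2 down in each of these comparisons, beside 23.6% up and 23.0% down of all genes tested in aging RGCs and 27.1% and 26.0% with the medium. Dpt, which encodes dermatopontin, went from 6.58, 2.86 and 7.60 CPM over 2.38, 1.96 and 2.84 CPM to 0.0514, 0.198 and 0.205 CPM. The list did not move one way, and its log2 fold changes with the medium ran from -3.92 to 1.81. It held 1 DEG up and 1 down there, beside 1.24% and 4.21% of all genes tested. Of 12 degradation genes, which count the inhibitors Timp1, Timp2 and Timp3 with the enzymes, 7 were tested, with 1 up (14.3%, against 23.6% of all genes tested) and 3 down (42.9%, against 23.0%) in aging RGCs, where the upward gene was Timp2. With the medium 1 was up (14.3%, against 27.1%) and 5 down (71.4%, against 26.0%), and 3 of the latter were DEGs, where 4.21% of all genes tested were downward DEGs. The collagenase gene Mmp13 measured 18.7, 16.7 and 17.7 CPM in aging RGCs and 3.60, 3.77 and 3.84 CPM with the medium (-2.24, SE 0.10, adjusted p = 2.63e-16). Timp1, an inhibitor of these enzymes, rose with the medium (0.82, SE 0.051, adjusted p = 1.33e-13), and Timp2, a further inhibitor, fell (-0.32, SE 0.034, adjusted p = 4.64e-09).

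In the deposited pathway annotation, 36 of the 101 genes of Protein digestion and absorption were collagens, and 44 of the 101 genes were tested, 24 of them collagens. The medium against aging RGCs gave 10 DEGs in that pathway, of which 5 were collagen genes (Col2a1, Col11a2, Col14a1, Col22a1 and Col24a1), where 1.24% of all genes tested were upward and 4.21% downward DEGs. Aging against normal RGCs gave 3 (1.09% and 1.56% of all genes tested), of which Col14a1 and Col27a1 were collagen genes. Each of those collagen genes had a mean under 0.5 FPKM. ECM-receptor interaction held 18 collagens among 89 genes, of which 11 and 53 were tested, and Col2a1 was the one collagen among its 8 DEGs with the medium.

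Some lists of cell type markers moved with the collagen sums and others did not. The 8 fibroblast and mesenchymal markers summed to 61.3, 55.4 and 60.8 FPKM in normal RGCs, 54.5, 54.1 and 53.9 FPKM in aging RGCs, and 41.8, 43.3 and 44.4 FPKM with the medium, and the groups did not overlap. Twist2, the highest of this list, and Pdgfrb fell in both steps. Twist1 fell with the medium and did not pass the test in aging RGCs (log2 fold change 0.09, adjusted p = 0.341). Pdgfra fell in aging RGCs and did not pass with the medium (0.22, adjusted p = 0.219), and Prrx1 passed in neither step. The RGC list summed to 59.2, 59.0 and 60.8 FPKM, then 41.6, 43.2 and 45.4 FPKM, then 33.2, 32.9 and 36.6 FPKM. Within it the neurofilament gene Nefl fell in both steps (19.4, 11.5 and 4.90 FPKM on average). Rbpms (log2 fold change -0.30, adjusted p = 3.18e-05) and Isl1 (-0.66, adjusted p = 3.38e-06) fell in aging RGCs. With the medium Rbpms (-0.05, adjusted p = 0.49) and Isl1 (0.13, adjusted p = 0.314) did not pass the test. Endothelial markers were low, and their most abundant gene Cdh5 had means of 3.52, 2.08 and 0.703 FPKM.

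The epithelial list, led by Krt8, summed to 655, 711 and 685 FPKM in normal RGCs, 644, 655 and 636 FPKM in aging RGCs, and 682, 709 and 696 FPKM with the medium. Its keratins went different ways in aging RGCs, where Krt8 rose (0.45, adjusted p = 2.41e-11) and Krt18 and Krt19 fell (-0.35, adjusted p = 1.47e-08, and -0.41, adjusted p = 5.6e-10). The glial list, in which 5 of 6 genes were under 0.5 FPKM so that its sum was in effect Glul, summed to 36.7, 41.0 and 39.7 FPKM, then 35.5, 37.9 and 35.0 FPKM, and was highest with the medium at 44.8, 49.5 and 44.6 FPKM. Macrophage markers, led by Cd68, summed to 53.2, 46.2 and 43.7 FPKM, then 39.3, 37.7 and 35.4 FPKM, then 25.6, 23.2 and 38.8 FPKM, so that the third medium library stood apart. In aging RGCs Cd68 did not pass the test (0.10, adjusted p = 0.237), while Lyz2 (11.9 to 2.44 FPKM on average), Csf1r and Adgre1 fell. The 5 skeletal markers, led by Runx2 and with Acan and Bglap at 0, summed to 17.9, 16.6 and 17.3 FPKM, then 15.5, 16.9 and 13.4 FPKM, then 12.1, 13.3 and 13.6 FPKM, so that aging RGCs overlapped both other groups. Sox9 fell with the medium (-0.48, adjusted p = 1.52e-05), and Runx2 did not pass the test there (0.08, adjusted p = 0.296). The part of these markers in the collagen levels was not tested.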

How the data were processed

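Values of 9 RNA libraries, enriched for mRNA by oligo(dT), were analysed, 3 per group, with groups taken from the labels. For each gene the authors deposited an expected count, an estimated read number that is not normalized, and an FPKM value. The genome build is mm10 per the submitters' processing notes, and the aligner and counting program were not given in the sources used here. Expected counts were rounded, and edgeR 4.0.16 in R 4.3.3 was used with filterByExpr (12145 genes kept), TMM factors, 1 mean per group over all 9 libraries and the quasi-likelihood F test with Benjamini-Hochberg adjustment over all genes tested. The fit had 6 residual degrees of freedom and a biological coefficient of variation of 3.78%. Standard errors were derived from the coefficient and its F statistic. Wells of a group differed by more than counting noise (2.22 to 4.94 times its expectation). Coordinates came from GENCODE M21 on GRCm38, which matched 22267 genes and all 44 collagen genes, and promoter sequences from RefSeq GRCm38.p6.

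Named genes were collagen DEGs with a mean of at least 1 FPKM, the 8 most abundant members and chains of the same type. For each pathway list the rule admitted up to 3 genes per comparison and direction. The pathway lists after the chain modification list are not given in full, so genes that this rule admits can be missing from the text. Col12a1, Col15a1, Col27a1 and Lox lie outside this rule and were chosen after their values were seen. The members, classes, lists and rules were chosen with earlier results of these data known. Alternatives were DESeq2 1.42.0, limma 3.58.1 on log2(FPKM + 1) and log2(FPKM + 0.1), no TMM or upper-quartile factors, no filter or 1 CPM in 3 libraries, only the groups compared, a replicate block and each library left out. Protein sequences were not used here.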

Additional observations from a re-analysis of the deposited data

How the results depend on the processing

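The counts of downward collagen genes past the test kept within 1.5 times their value under every alternative run. Upward genes past the test in aging against normal RGCs numbered 6, and 3 with limma on log2(FPKM + 1) or log2(FPKM + 0.1). In the medium against aging RGCs they numbered 3, and 2 to 3 over the alternatives. In the medium against normal RGCs they numbered 5, and 3 with limma on log2(FPKM + 0.1). Collagen DEGs were less stable. Upward in aging RGCs there were 2, 1 with a filter of 1 CPM in 3 libraries or only the groups compared, 0 with limma at either pseudocount, and 1 to 2 with a library left out (1 without normal replicate 2 or aging replicate 1). Downward there was 1, and 0 with limma on log2(FPKM + 1). The 7 downward DEGs of the medium against aging RGCs became 4 with the 1 CPM filter, 0 with limma on log2(FPKM + 1), and 6 to 8 with a library left out. Against normal RGCs, the 2 upward DEGs became 1 without TMM factors, with no low-count filter, with the 1 CPM filter, with only the groups compared or with DESeq2, 0 with limma at either pseudocount, and 1 to 2 with a library left out (1 without normal replicate 2, normal replicate 3 or medium replicate 2). The 7 downward DEGs became 2 with limma on log2(FPKM + 1). The pseudocount and the 1 CPM filter bear on these counts by construction, since they shrink or drop low genes.

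Among the 55 pairs of a gene and a comparison run under the alternatives, directions turned only for genes that were not past the test. Col4a2 in aging RGCs gave -0.0117 without TMM factors, -0.0116 and -0.0117 with limma, and -0.0143 to 0.0296 with a library left out. Col6a1 with the medium against aging RGCs gave -0.0336 without TMM factors and -0.0329 and -0.0336 with limma, and against normal RGCs -0.0704 without TMM factors, -0.00608 with upper-quartile factors, -0.0656 and -0.0669 with limma, and -0.0233 to 0.0768 with a library left out. Left-out ranges in aging RGCs were -0.071 to 0.029 for Col6a1 and -0.12 to 0.0166 for Col6a2. Without TMM factors the median of all genes was -0.113 for the medium against normal RGCs. Summed CPM in place of FPKM, which drops transcript length and adds TMM factors together, gave ratios of 0.829 and 0.772 for all collagen genes with the medium against aging and normal RGCs, 0.863 and 0.802 for basement membrane genes, 0.887 and 0.96 for the others, and 1.08 for the others in aging against normal RGCs.

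Replicate numbers did not pair the wells (correlations of deviations -0.0939 to 0.0592), and a replicate block left each count of collagen calls as it was, with 3 up and 15 down for the medium against aging RGCs. Over 55 pairs of a gene and a comparison, 925 of 980 alternative values kept direction and call, 31 lost the call, 7 gained it and 17 turned. Depth limits the genes under 0.5 FPKM, whose calls rest on few counts, and the cause of changes among them was not tested.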

Other observations

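Itgb1, the shared beta chain of all collagen-binding integrins, had low deposited counts, chosen for mention after they were seen, and whether the estimates for this gene are reliable was not tested. The counts were 19, 38 and 26 in normal RGCs, 29, 5 and 5 in aging RGCs, and 8, 3 and 15 with the medium. The alpha chain gene Itga1 stood at 37.1, 38.5 and 39.4 CPM in normal RGCs, and the receptor Ddr2 at 609, 632 and 596 CPM.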
